A study of Mus musculus with 21 samples.

Results

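The comparison is of conventional T cells (Tconvs) of the injured mouse heart with Tconvs of the spleen, over every gene counted. It uses 6 of the 21 libraries of the study, 3 of heart Tconvs and 3 of spleen Tconvs, chosen by their library titles. All 6 came from Foxp3-GFP mice, 8 weeks old, at 7 days after myocardial infarction (MI), so the spleen is that of an infarcted mouse and not of a healthy one. Foxp3-GFP ties a green fluorescent protein to Foxp3, the lineage gene of regulatory T cells (Tregs), and Tconvs are the T cells without it. Cells passed magnetic enrichment and then fluorescent sorting straight into lysate, and libraries were prepared with the SMARTer ultra-low-input chemistry. The labels do not state whether replicates came from separate or pooled animals, so p-values measure the spread between libraries, which may be partly technical. The study asked how T cells of the infarcted heart differ from those of lymphoid organs.

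A naive T cell circulates between blood and lymphoid organs, held on that path by receptors such as CCR7 and S1PR1. When its antigen receptor is engaged, immediate early genes, the NF-kB pathway and its own inhibitors, and later adhesion and inhibitory receptors are switched on, and effector and memory cells enter tissue. In an infarct, T cells meet dying muscle, low oxygen, and fibroblasts and macrophages that build the scar.

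Levels are in CPM, read counts scaled to a common library size, after TMM scaling, which corrects for differences in library composition. A gene was called when the adjusted p of edgeR's quasi-likelihood test, with Benjamini-Hochberg adjustment over all genes tested, was under 0.05. Every adjusted p below is of that kind. Each log2 fold change is heart minus spleen, with its standard error (SE). Where a group held only 1 to 3 counts of a gene, a ratio of pooled counts is given with its 95% counting interval. For it, the counts of each group were pooled over its libraries and scaled by their summed size. Where a group held none, a lower bound is given against a floor of 3 counts over the group. Intervals and floors cover counting error only.

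The heart Tconv libraries differed from the others in more than their organ. Totals in heart Tconv 1, 2 and 3 were 17360914, 20060148 and 22362872 counts, and in spleen Tconv 1, 2 and 3 they were 26967982, 25376526 and 19004326 counts. Mitochondrial ribosomal RNA made up 0.0567%, 0.102% and 0.954% of counts in heart Tconv 1, 2 and 3, against 2.22 to 3.93% in spleen. Ribosomal protein genes made up 6.09%, 8.31% and 12.9% in heart and 17.2 to 23.8% in spleen. Over the series, 5 libraries stand apart by a very low mitochondrial rRNA share, and heart Tconv 1 and 2 are among them while no spleen library is. Among the other 16 libraries heart Tconv 3 has the lowest share, and the next is 1.87%. Heart Tconv 3 is therefore given by itself for each called gene or, for those listed by name, as a range, and the adjusted p from a fit with a term for those 5 libraries is quoted below as the adjusted p with the library-set term.

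T cell transcripts were present in all 6 libraries, but these markers did not move together. Cd3e, a chain of the antigen receptor complex, stood at 267, 226 and 432 CPM in heart and at 180, 180 and 93.5 CPM in spleen. Lck was also higher in every heart library than in any spleen library, while Cd3d, Cd3g, Trbc2 and Thy1 were lower in every heart library. Trac and Cd247 overlapped between the groups, and Cd247 was at 23.1 CPM in heart Tconv 2 against 321 and 368 CPM in heart Tconv 1 and 3. Foxp3 did not exceed 0.164 CPM in any of them. Cd4 ran from 43 to 149 CPM, and Cd8a was at 0 CPM in 4 libraries and at 6.89 CPM at most. Cd8b1, the other chain of CD8, was present in all 6, at 19.5, 26.3 and 5.73 CPM in heart and 53.4, 25 and 20.3 CPM in spleen.

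Of 14996 genes tested, 71 were called (0.473%): 46 were higher in heart Tconvs (0.307%) and 25 were lower (0.167%). At an unadjusted p under 0.05 there were 1067 higher (7.12%) and 814 lower (5.43%). The median log2 fold change was 0.27 over all genes tested, 2.82 over the 46 and −1.95 over the 25. Whatever the p, 54.7% of all genes tested were higher in heart and 42% lower, the rest holding at most 3 counts in either group. The counts of list members below stand beside those shares. Of 2 other tools, DESeq2 called 1470 of the 14142 genes to which it gave an adjusted p (894 higher, 576 lower). The other, limma-voom, called 222 of 14996 (172 and 50). List members called by these tools stand beside those totals, and DESeq2 calls were far more frequent than those of edgeR over all genes. In each of the 71 genes every heart library lay on the same side of every spleen library. Such separation was found in 14.3% of all genes tested with heart above and in 9.97% with heart below. Calls were sensitive to single libraries. Without heart Tconv 1, 2 and 3, 16, 8 and 187 genes were called, with 15, 7 and 67 of the 71 among them. Without spleen Tconv 1, 2 and 3 there were 12, 77 and 3 genes called, with 9, 42 and 3 of the 71 among them. The calls thus leaned on heart Tconv 1 and 2, of the low mitochondrial rRNA set, more than on heart Tconv 3. Of the 71, only Cdkn1a and Traf1 were called in each of these 6 fits. In bulk libraries, fewer cells of a kind and less RNA per cell cannot be told apart.

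**Figure D1:**
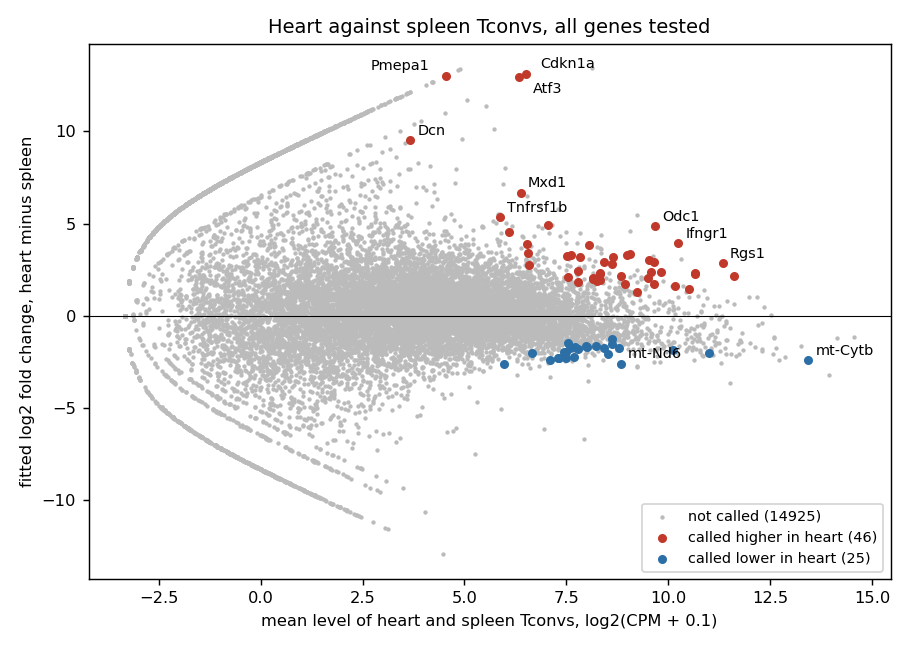
Each point is 1 of the 14996 genes tested, placed by its mean level in heart and spleen Tconvs, as log2(CPM + 0.1), and its fitted log2 fold change. Red points are the 46 genes called higher in heart and blue points the 25 called lower; fold changes of genes with few or no counts in a group, on the curved edges, depend on the fit's prior count.

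Cdkn1a (ENSMUSG00000023067, chr17:29090976-29100727 on GRCm38, plus strand), which encodes the cell cycle inhibitor p21, gave the smallest p. It stood at 159.8, 197.9 and 189.9 CPM in heart Tconv 1, 2 and 3 and at 0, 0.0393 and 0 CPM in spleen Tconv 1, 2 and 3. The 3 heart libraries lie close together, and a single spleen library holds any count. The ratio of pooled counts was 12060, with a counting interval from 2165 to 476500 (adjusted p = 6.1e-06). The adjusted p was 2.7e-05 with the library-set term, and with heart Tconv 3 as the only heart library, among the 16 libraries outside the low set, it was 0.0015 and Cdkn1a was the only gene called.

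Atf3 and Mxd1 were also among the largest rises, with at most 2.6 CPM in any spleen library. Atf3, a stress-induced transcription factor, was at 232.7, 179 and 70.9 CPM in heart and at 0, 0.0393 and 0 CPM in spleen (ratio 10580, interval 1899 to 418000, adjusted p = 0.021). Mxd1, a partner of MAX that opposes MYC, was at 160.4, 167.4 and 167.7 CPM in heart and at 2.6, 2.2 and 0 CPM in spleen. Its log2 fold change was 6.68 (SE 1.37, adjusted p = 0.03). Heart Tconv 3 had the lowest Atf3 of the heart libraries and an Mxd1 level like the other heart libraries. With the library-set term the adjusted p was 0.074 for Atf3 and 0.13 for Mxd1.

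**Figure D2:**
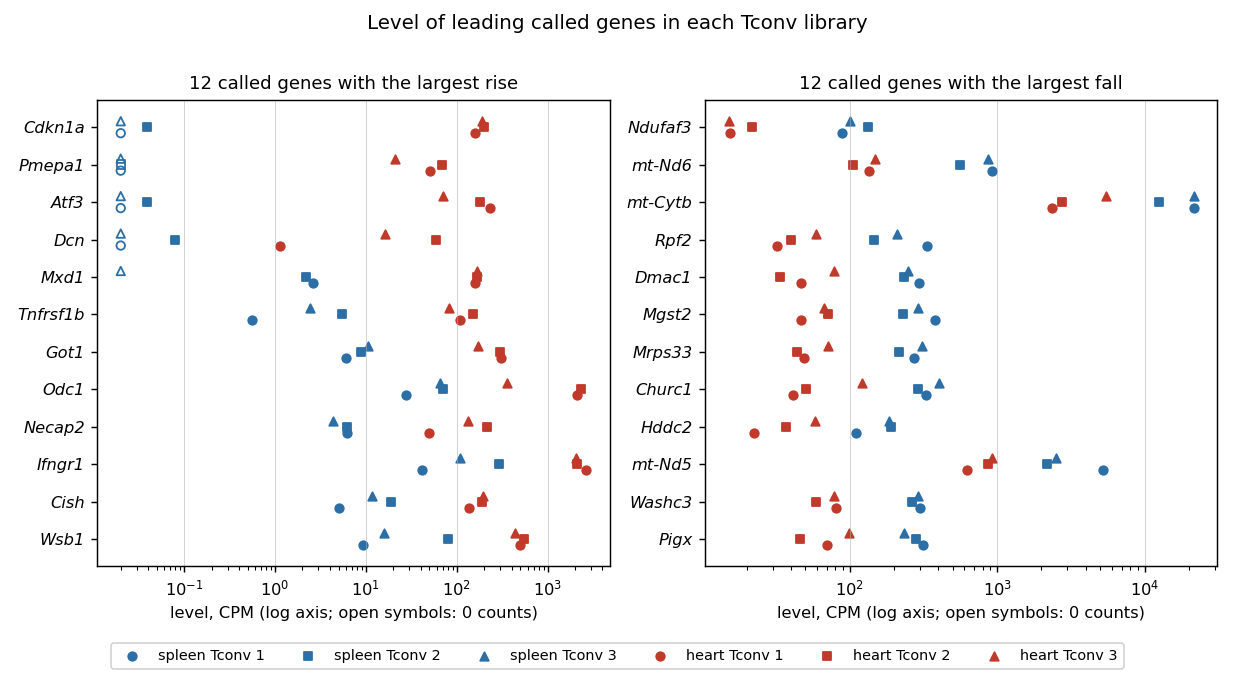
Level of the 12 called genes with the largest rise (left) and the 12 with the largest fall (right) in each library, in CPM on a log axis; red symbols are heart Tconvs, blue symbols spleen Tconvs, the shape gives the replicate and open symbols mark 0 counts. In all 24 genes the red and blue symbols do not overlap, and for Odc1 heart Tconv 3, at 357 CPM, lies apart from heart Tconv 1 and 2, at 2122 and 2305 CPM.

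Ifngr1, Tnfrsf1b, Cish and Stat3 are described side by side for their role in cytokine signalling; they were put together after their values were seen, and no list of such genes was counted. Ifngr1, the ligand-binding chain of the interferon-gamma receptor, was at 2662, 2112 and 2046 CPM in heart and at 40.9, 294.3 and 108 CPM in spleen. The groups are far apart, and the spread is wider in spleen than in heart. It rose by a log2 fold change of 3.94 (SE 0.56, adjusted p = 0.0039, and 0.019 with the library-set term). Tnfrsf1b, which encodes TNF receptor 2, was at 107.3, 151 and 81.8 CPM in heart and at 0.563, 5.43 and 2.42 CPM in spleen (log2 fold change 5.33, SE 0.96, adjusted p = 0.017). Its adjusted p with the library-set term was 0.079. Cish, a feedback inhibitor of cytokine signalling, rose from 5.02, 18.8 and 11.8 CPM in spleen to 136.1, 189.5 and 194.8 CPM in heart (adjusted p = 0.039). Stat3, the transcription factor downstream of interleukin-6 family cytokines, rose by a log2 fold change of 3.42 (SE 0.66, adjusted p = 0.023), with 92.5 CPM in heart Tconv 3 against 8.18 to 31.4 CPM in spleen. Both Cish and Stat3 had an adjusted p of 0.16 with the library-set term.

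Inhibitors that NF-kB switches on in its own pathway were mostly higher in heart Tconvs. Of 16 genes listed for NF-kB feedback, 15 were higher and 1 lower, with a median log2 fold change of 2.19, and 3 were called: Traf1, Nfkbia and Nfkbid. Traf1, an adaptor of TNF receptors, was at 325.8, 413.9 and 322.9 CPM in heart and at 39.4, 44.2 and 22.6 CPM in spleen. The heart libraries lie close together, far above the spleen libraries. Its log2 fold change was 3.32 (SE 0.42, adjusted p = 0.0012, and 0.0098 with the library-set term). Nfkbia, the inhibitor IkB-alpha, was at 2437, 1956 and 3669 CPM in heart and at 539.2, 673.3 and 493.3 CPM in spleen (log2 fold change 2.24, SE 0.42, adjusted p = 0.021). Here heart Tconv 3 had the highest level of the 6 libraries. Nfkbid, a nuclear IkB protein, was at 294.3, 427.1 and 270.4 CPM against 23.6, 33.3 and 49.2 CPM (log2 fold change 3.22, SE 0.71, adjusted p = 0.046). For Nfkbia the adjusted p with the library-set term was 0.074, and for Nfkbid 0.25. Tnfaip3, which encodes the deubiquitinase A20, had 645.5 to 1456 CPM in heart against 155.2 to 417.7 CPM in spleen and did not pass (log2 fold change 2.04, adjusted p = 0.11). The member on the other side was Cflar, an inhibitor of caspase-8, with a log2 fold change of −1.18 (adjusted p = 0.13).

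The promoters of the called genes were read for known factor sequences. Of the called genes, 36 of the 46 higher and 20 of the 25 lower matched a RefSeq promoter (GRCm38.p6). The 250 bases before each start were searched on both strands. The kappaB consensus of NF-kB was found for 4 of the 36 (11.1%), against 6.36% of the 9743 genes tested with a promoter, and for 0 of the 20. The AP-1 sequence TGANTCA was found for 3 of the 36 (8.33%, against 5.01%) and 2 of the 20, and the CRE sequence TGACGTCA for 3 of the 36 (8.33%, against 3.08%). The ER stress element was found for Hspa5 alone of the 36 (against 0.154%), and the heat shock element for Dnajb6 alone (against 0.431%). Besides Nfkbia and Nfkbid, the kappaB matches were those of Mxd1 and Vim. Traf1 had no kappaB match, Dnaja1 had no heat shock element, and Hspa8 matched no promoter. Nfkbid also had windows without any match. Stretches are shown for the 4 called inhibitors and chaperones with a match. They run 5′ to 3′ on the strand of the gene, with each match in capitals. Those of Nfkbia and Nfkbid show the kappaB-like sequence in its reverse form, with a CRE towards the end of the Nfkbid stretch. That of Hspa5 shows an AP-1 sequence and then the ER stress element, and that of Dnajb6 the heat shock element.
Nfkbia, chr12:55492648-55492696, minus strand: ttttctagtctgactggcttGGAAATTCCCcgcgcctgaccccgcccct
Nfkbid, chr7:30422205-30422382, plus strand: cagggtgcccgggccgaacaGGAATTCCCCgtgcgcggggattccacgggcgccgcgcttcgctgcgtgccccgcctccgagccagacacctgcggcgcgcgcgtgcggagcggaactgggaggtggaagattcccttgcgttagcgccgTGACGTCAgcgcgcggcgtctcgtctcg
Hspa5, chr2:34771888-34772063, plus strand: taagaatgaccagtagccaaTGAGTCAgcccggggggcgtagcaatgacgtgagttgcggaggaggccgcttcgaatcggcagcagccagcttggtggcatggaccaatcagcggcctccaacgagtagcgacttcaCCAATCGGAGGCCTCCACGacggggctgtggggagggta
Dnajb6, chr5:29735832-29735884, plus strand: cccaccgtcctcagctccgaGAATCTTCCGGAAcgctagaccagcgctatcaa
A match describes these letters in this window and shows no binding.

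Chaperones, the proteins that fold other proteins and rise with heat or unfolded protein, were higher in heart Tconvs in most cases. Of 15 genes listed for heat shock, 13 were higher and 2 lower, the median log2 fold change was 1.98, and 3 were called. Hspa5, the chaperone BiP of the endoplasmic reticulum, was at 1746, 1543 and 671.4 CPM in heart and at 203.4, 181.2 and 100.2 CPM in spleen (log2 fold change 3.03, SE 0.46, adjusted p = 0.0052, and 0.037 with the library-set term). Heart Tconv 3 had less than heart Tconv 1 and 2 and more than any spleen library. Hspa8, the constitutive chaperone HSC70, was at 1935, 3297 and 2799 CPM in heart and at 601.9, 625.8 and 363.2 CPM in spleen (adjusted p = 0.017). Its cochaperone Dnaja1 rose by a log2 fold change of 1.27 (SE 0.26, adjusted p = 0.03). Outside the list, Dnajb6 rose by 1.84 (SE 0.38, adjusted p = 0.033). Heart Tconv 3 stood at 690.2 CPM in Dnaja1, against 313.3 to 418 CPM in spleen, and at 330.4 CPM in Dnajb6, against 52.3 to 120.4 CPM. With the library-set term the adjusted p was 0.088 for Hspa8, 0.17 for Dnaja1 and 0.14 for Dnajb6. Hspe1, the cochaperone of mitochondrial HSP60, went the other way without passing, at 105.5, 105.5 and 176.4 CPM against 475.3, 328.9 and 297.1 CPM (adjusted p = 0.14).

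Immediate early genes, which respond within minutes to receptor signals and also to handling of cells, were higher in heart Tconvs in 20 of 23 cases, with a median log2 fold change of 1.95, and Junb and Atf3 were called. Junb, a subunit of AP-1, was at 1153, 2104 and 1013 CPM in heart and at 255.6, 134.7 and 182.5 CPM in spleen (log2 fold change 2.90, SE 0.61, adjusted p = 0.034, and 0.25 with the library-set term). Of the members that did not pass, Gadd45b had 637.3, 469.4 and 664.2 CPM against 93.8, 31 and 15.6 CPM (adjusted p = 0.069), and the transcription factor gene Egr1 had 183.4, 239.4 and 222.7 CPM against 7.84, 12 and 1.9 CPM (adjusted p = 0.11). The groups do not overlap in either.

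Of 22 genes listed for activation through the T cell receptor 19 were higher and 3 lower, with a median log2 fold change of 1.58. By edgeR 0 were called, 9 were higher at an unadjusted p under 0.05, and DESeq2 called 6 and limma-voom 1. Nr4a1, a nuclear receptor induced by receptor engagement, had 360.1, 68.9 and 249.8 CPM in heart and 24.1, 20.3 and 10.4 CPM in spleen (log2 fold change 3.63, SE 0.96, adjusted p = 0.086). Nr4a3, its relative, had 394.7, 170.9 and 124.1 CPM against 3.2, 12.8 and 9.85 CPM (adjusted p = 0.092). Tnfrsf4, the costimulatory receptor OX40, had 581.2 to 836.4 CPM against 88.4 to 354.9 CPM (adjusted p = 0.2). In these 3 genes each heart library was above each spleen library. Genes of the receptor complex and its proximal signalling were divided, 10 of 19 higher and 9 lower with a median of 0.13. By edgeR 0 of them were called and 9 had an unadjusted p under 0.05 (5 higher, 4 lower), while DESeq2 called 5 and limma-voom 2. Lck, the kinase that starts the signal, had a log2 fold change of 1.44 (adjusted p = 0.096), and Cd3d, a receptor chain, one of −1.22 (adjusted p = 0.067).

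**Figure D3:**
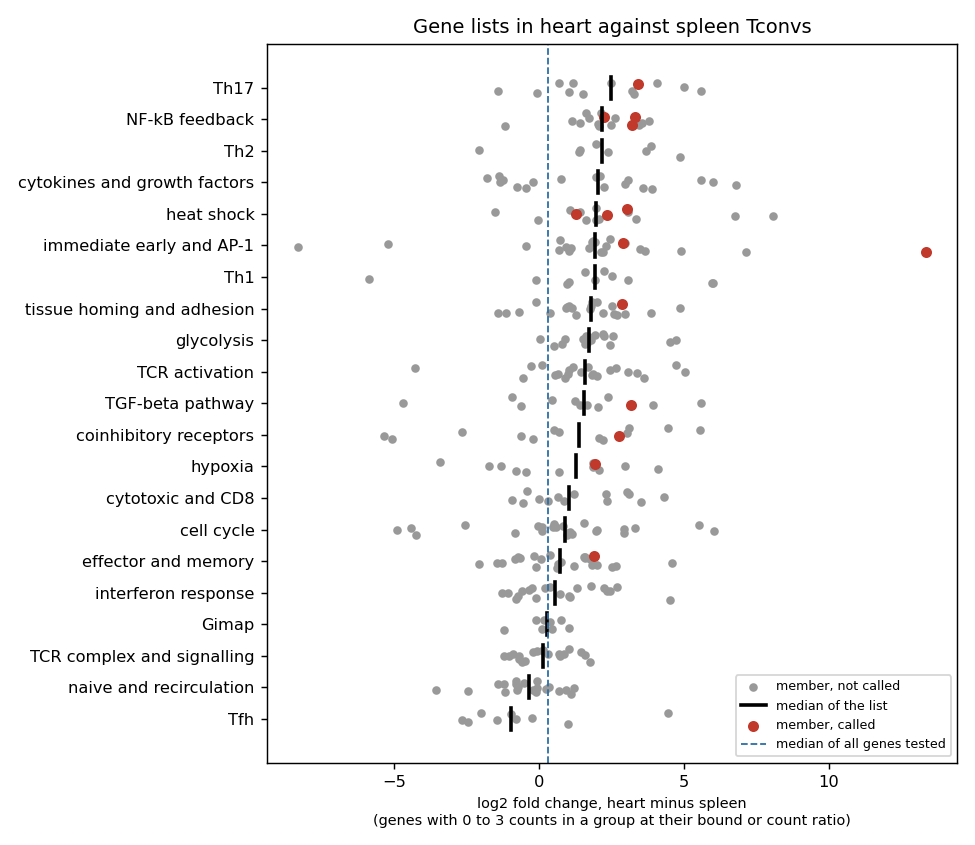
Log2 fold change of each tested member of 21 gene lists in heart against spleen Tconvs; grey points were not called, red points were called, black bars are list medians and the dashed line is the median of all genes tested, 0.31 on this scale. Medians run from −0.98 (Tfh) to 2.49 (Th17), and no list has a called member on the lower side.

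Tissue homing and adhesion genes were higher in heart Tconvs in 18 of 23 cases and lower in 4, with a median log2 fold change of 1.78. Rgs1, a regulator that dampens chemokine receptor signals and marks T cells lodged in tissue, was the 1 called member. It was at 3643, 5808 and 4218 CPM in heart and at 888.3, 565.2 and 441.6 CPM in spleen (log2 fold change 2.85, SE 0.48, adjusted p = 0.012, and 0.037 with the library-set term). Selplg, which encodes the selectin ligand PSGL-1, had 645, 871.1 and 663.8 CPM against 217.2, 172.7 and 152 CPM and fell just short of the threshold (adjusted p = 0.053). The chemokine receptor gene Ccr8 had 197.4, 122.7 and 95.8 CPM against 0.0433, 14 and 0 CPM (adjusted p = 0.098), and Cd44, the hyaluronan receptor of experienced T cells, 349.4, 255.2 and 323.5 CPM against 48.3, 133.1 and 89 CPM (adjusted p = 0.14). Cd69, an early activation antigen that also retains cells in tissue, had 1991, 1762 and 2101 CPM against 1341, 829.2 and 701.9 CPM (adjusted p = 0.35).

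Genes of naive and recirculating T cells did not divide cleanly between heart and spleen. Of 20, 6 were higher and 14 lower, with a median log2 fold change of −0.35. By edgeR 0 were called and 3 were lower at an unadjusted p under 0.05; DESeq2 called 0 and limma-voom 1. Ccr7, the receptor for entry into lymph nodes, was at 854.5, 1112 and 595.5 CPM in heart and 565.6, 348 and 266.6 CPM in spleen (log2 fold change 1.12, SE 0.62, adjusted p = 0.44). Every heart library lay above every spleen library, without passing the test. Dapl1 had the lowest fold change of the list, at 28.9, 46 and 48.9 CPM against 443.1, 304.5 and 698.6 CPM (log2 fold change −3.55, SE 1.59, adjusted p = 0.38). The transcription factor genes Lef1 and Tcf7 had log2 fold changes of −0.50 and 0.94 (adjusted p = 0.77 and 0.63), S1pr1 one of 0.34 (adjusted p = 0.87) and Il7r, the survival cytokine receptor, one of −0.06 (adjusted p = 1).

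Among effector and memory genes, 16 of 24 were higher and 8 lower, with a median log2 fold change of 0.71. The groups did not overlap in 8 genes with heart above and in 5 with heart below. The sum of the list did not follow the count of genes. It was 15200, 12200 and 23700 CPM in heart and 20800, 25200 and 22500 CPM in spleen, which overlap, with the lower mean in heart. Vim, the intermediate filament vimentin, was called, at 369.5, 545 and 530 CPM in heart and 146.2, 150.4 and 90.2 CPM in spleen (log2 fold change 1.90, SE 0.36, adjusted p = 0.023, and 0.13 with the library-set term). Cd48, an adhesion ligand, had 420.4, 214.3 and 526.7 CPM against 1047, 1156 and 973.4 CPM (adjusted p = 0.059). Bhlhe40, a transcription factor of cytokine-producing T cells, had 996.6, 1282 and 827.2 CPM against 61.2, 58.4 and 9.39 CPM and did not pass (log2 fold change 4.59, SE 1.49, adjusted p = 0.18).

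Of 14 coinhibitory receptor genes 9 were higher and 5 lower, with a median log2 fold change of 1.46 (1.38 with genes absent from a group at their bound). By edgeR 5 were higher and 3 lower at an unadjusted p under 0.05. DESeq2 called 4 higher and 3 lower, limma-voom called 0, and with the library-set term 1 was called higher and 1 lower. Ctla4, which competes with CD28 for its ligands and is also abundant in Tregs, was called. It was at 122.4, 172.6 and 202.9 CPM in heart and at 9.87, 41 and 22.2 CPM in spleen (log2 fold change 2.77, SE 0.52, adjusted p = 0.021, and 0.042 with the library-set term). Heart Tconv 3 had the highest level. The 10 Treg genes listed summed to 1150, 998 and 1900 CPM in heart Tconvs and 594, 604 and 344 CPM in spleen Tconvs, with Foxp3 near 0 in all; their part in the Ctla4 result was not tested. Pdcd1, which encodes PD-1, had 38.6, 27.7 and 41.6 CPM against 0.0433, 4.88 and 0 CPM (adjusted p = 0.37), and Cd200, a ligand that restrains myeloid cells, 14.7, 10.2 and 2.8 CPM against 25.6, 62.6 and 87.6 CPM (adjusted p = 0.16).

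By edgeR none of the 4 lists of helper programmes (Th1, Th2, Th17 and follicular helper) had more than 1 called gene. Of the Th1 genes 9 of 11 were higher; edgeR called 0, with 3 at an unadjusted p under 0.05, and DESeq2 and limma-voom called 1 each. Ifng, the cytokine that Ifngr1 receives, had 732.1, 179.6 and 515.2 CPM in heart against 113.1, 137.7 and 52.7 CPM in spleen (adjusted p = 0.71). Of the Th2 genes 7 of 8 were higher; edgeR called 0, with 2 at an unadjusted p under 0.05, DESeq2 called 2 and limma-voom 1. Of the Th17 genes 11 of 13 were higher; edgeR called Stat3, DESeq2 called 3 and limma-voom 0. Il17a had 177.1, 335.1 and 145.1 CPM against 46.3, 0 and 24.7 CPM (adjusted p = 0.56). Follicular helper genes were lower in 7 of 9 cases; edgeR called 0, with 3 at an unadjusted p under 0.05, DESeq2 called 3 and limma-voom 0. Among them Sh2d1a, the adaptor SAP, had 109, 109.9 and 202.3 CPM against 260.1, 438.3 and 445.5 CPM (adjusted p = 0.1).

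Of 14 cytotoxic and CD8 genes 11 were higher; edgeR called 0, with 2 at an unadjusted p under 0.05, and DESeq2 and limma-voom called 0. Of 18 cytokine and growth factor genes 11 were higher; edgeR called 0, with 3 at an unadjusted p under 0.05, DESeq2 called 3 and limma-voom 0. Among these Tnfsf11, which encodes RANKL, had 374.4, 169.8 and 142.9 CPM against 2.34, 8.18 and 0 CPM (log2 fold change 6.02, SE 1.76, adjusted p = 0.12), and Areg, the growth factor amphiregulin, 75.7, 93 and 21.9 CPM against 0, 9.4 and 3.46 CPM (adjusted p = 0.15). Levels of these effector genes separated the groups in several cases, but libraries of 1 group differed several-fold among themselves.

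All 17 glycolysis genes tested were higher in heart Tconvs, with a median log2 fold change of 1.72, and edgeR called 0 of them, with 6 at an unadjusted p under 0.05, while DESeq2 called 5 and limma-voom 1. Ldha, lactate dehydrogenase, had 1450, 2614 and 1921 CPM in heart against 598.8, 823.4 and 521.8 CPM in spleen (adjusted p = 0.11), and the enolase gene Eno1 615.4, 1333 and 900.8 CPM against 131.5, 269.2 and 209.6 CPM (adjusted p = 0.076). Among 12 hypoxia genes 7 were higher and 5 lower, near the division of all genes tested, and Hif1a, the oxygen-regulated transcription factor, was called. It was at 488.6, 606.9 and 432.7 CPM in heart and 105, 143.4 and 148 CPM in spleen (log2 fold change 1.95, SE 0.39, adjusted p = 0.029, and 0.16 with the library-set term). Of called genes in no list, Odc1, the first enzyme of polyamine synthesis, was at 2122, 2305 and 357.2 CPM in heart and 27.5, 70.5 and 65.6 CPM in spleen (log2 fold change 4.87, SE 1.00, adjusted p = 0.03, and 0.14 with the library-set term). The rise of Odc1 was thus much smaller in heart Tconv 3. Got1, the cytosolic aspartate aminotransferase, was at 303.6, 301.5 and 170.8 CPM against 5.98, 8.93 and 10.5 CPM (adjusted p = 0.028, and 0.16 with the library-set term).

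Among genes of TGF-beta signalling 9 of 13 were higher and 3 lower, with a median log2 fold change of 1.66, and Skil, which encodes the pathway's repressor SnoN, was called. It was at 344.3, 379.7 and 508.2 CPM in heart and 42.8, 46.2 and 48 CPM in spleen (log2 fold change 3.17, SE 0.60, adjusted p = 0.021, and 0.057 with the library-set term). Outside the list, Pmepa1, an inhibitor that the pathway induces, was at 50.6, 68.5 and 20.8 CPM in heart and at 0 CPM in all spleen libraries, at least 1024-fold higher (adjusted p = 0.033, and 0.13 with the library-set term).

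Among interferon-responsive genes 12 of 20 were higher, also near the division of all genes tested; edgeR called 0, with 4 at an unadjusted p under 0.05, DESeq2 called 2 and limma-voom 1. Irf1, the member nearest to the threshold, had 355.8, 470.3 and 262.5 CPM against 138.9, 31.9 and 44.2 CPM (adjusted p = 0.053). Cell cycle genes were higher in 18 of 24 cases; edgeR called 0, with 5 at an unadjusted p under 0.05, DESeq2 called 4 and limma-voom 0. Among them Pcna, the DNA polymerase clamp, had 536.7, 633.7 and 418.5 CPM against 258.2, 340 and 212.2 CPM (adjusted p = 0.17). The Gimap family of lymphocyte GTPases had a median log2 fold change of 0.27 over 8 genes; edgeR called 0, with 3 at an unadjusted p under 0.05, DESeq2 called 2 and limma-voom 0.

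Of the remaining genes called higher, which belong to no list, 4 were also called with the library-set term. Samsn1, an adaptor that restrains lymphocyte activation, was at 562.7, 617 and 649.6 CPM in heart and 44, 150.2 and 49.8 CPM in spleen (adjusted p = 0.004, and 0.019 with the library-set term). P2ry10, a lysophospholipid receptor, was at 590.1, 430.2 and 571.7 CPM against 124.5, 97.5 and 100.2 CPM (adjusted p = 0.0052, and 0.015 with the library-set term). Emb, the membrane glycoprotein embigin, was at 1884, 1907 and 1459 CPM against 500.7, 573.6 and 608 CPM (adjusted p = 0.0093, and 0.019 with the library-set term). Fam107b was at 863.4, 1487 and 422.5 CPM against 123.5, 103.7 and 57.4 CPM (adjusted p = 0.012, and 0.042 with the library-set term). By itself, heart Tconv 3 stood at 7.99 times the spleen mean in Samsn1, 5.32 times in P2ry10, 4.45 times in Fam107b and 2.6 times in Emb. The other genes called higher, each with a log2 fold change between 1.45 and 4.56, were Necap2, Wsb1, Ifrd1, Prkar1a, Ubl3, Prdx6, Saraf, Sdf4, Laptm5, H2-D1, Ube2j1, Ywhaz, Pde4b, Slc38a2, Arf4, Cytip and Stk17b. In heart Tconv 3 by itself they stood at 2.13 (Cytip) to 23.6 (Necap2) times the spleen mean, and with the library-set term their adjusted p ran from 0.057 (Pde4b) to 0.31 (Cytip). H2-D1 is an MHC class I gene whose reads can be shared with close relatives, so its value is uncertain.

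Of the 25 genes that fell, 4 are encoded by the mitochondrial genome. mt-Nd6, a subunit of respiratory complex I and the only one of the 4 on the minus strand, was at 135, 105.1 and 148.1 CPM in heart and at 924.4, 561.5 and 863.3 CPM in spleen (log2 fold change −2.60, SE 0.39, adjusted p = 0.0052, and 0.043 with the library-set term). mt-Cytb, cytochrome b of complex III, was at 2359, 2748 and 5484 CPM against 21590, 12540 and 21710 CPM (log2 fold change −2.40, adjusted p = 0.028). mt-Nd2 and mt-Nd5, further subunits of complex I, fell by 1.88 and 2.04 on the log2 scale (adjusted p = 0.017 and 0.021). Heart Tconv 3 had 403 CPM of mt-Nd2, against 1224 to 2282 CPM in spleen, and 921.9 CPM of mt-Nd5, against 2165 to 5256 CPM. With the library-set term the adjusted p was 0.1 for mt-Cytb and mt-Nd2 and 0.19 for mt-Nd5. All mitochondrial genes together made up 1.28%, 1.37% and 2.88% of counts in heart and 5.92 to 9.55% in spleen. Reads of mt-Nd6 and mt-Nd5 overlap at their ends, and the sources used here do not give the strand setting of the counting. The part of the mitochondrial share of each library in these results was not tested beyond the fit with the library-set term.

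The other 21 genes that fell are nuclear. Ndufaf3, an assembly factor of complex I, was at 15.4, 21.8 and 15.1 CPM in heart and 89.3, 133.4 and 100.9 CPM in spleen (log2 fold change −2.63, SE 0.54, adjusted p = 0.031, and 0.2 with the library-set term). Dmac1, which also assembles complex I, was at 46.4, 33.6 and 77.7 CPM against 297.3, 234.8 and 248.8 CPM (adjusted p = 0.046). Mrps33, a protein of the mitochondrial ribosome, was at 49.2, 43.6 and 71.3 CPM against 273.2, 217 and 307.3 CPM (adjusted p = 0.02). Rpf2, a factor of ribosome assembly, was at 32.3, 40.1 and 59.2 CPM against 334.6, 145.7 and 208.6 CPM (adjusted p = 0.024). In Dmac1, Mrps33 and Rpf2 heart Tconv 3 had the highest heart level and still lay below each spleen library. Mgst2, a membrane-bound glutathione transferase, had log2 fold change −2.29 (SE 0.39, adjusted p = 0.012), and Washc3, a subunit of the WASH complex of endosomes, −1.97 (SE 0.35, adjusted p = 0.017). Heart Tconv 3 had 66.4 CPM of Mgst2, against 229.7 to 380.6 CPM in spleen, and 78.4 CPM of Washc3, against 266.3 to 298.3 CPM. The adjusted p with the library-set term was 0.31 for Dmac1, 0.14 for Mrps33, 0.16 for Rpf2, 0.082 for Mgst2 and 0.074 for Washc3. The rest, with log2 fold changes from −1.28 to −2.26, were Churc1, Hddc2, Pigx, Rpl22, C1d, Snrpe, Abracl, Romo1, Ssu72, Mcts1, Fam189b, Arpc5l, Rbx1, Commd3 and Nedd8. In heart Tconv 3 by itself they stood at 0.244 (C1d) to 0.506 (Nedd8) times the spleen mean, and with the library-set term their adjusted p ran from 0.16 to 0.38 (Rpl22). In the fit with the library-set term mt-Nd6 was the only gene of the 25 called.

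The longest annotated transcript had a median of 1487 bases over the 25 genes and 3223 bases over the 46, against 2832 bases over all genes tested. Of the 25, 9 (36%) were under 1000 bases, against 0 of the 46 and 16.5% of all genes tested. All called genes are protein-coding. Among protein-coding genes tested the median was 3334 bases, slightly above that of the 46, and 5.02% were under 1000 bases. Whether transcript length bears on these results was not tested.

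**Figure D4:**
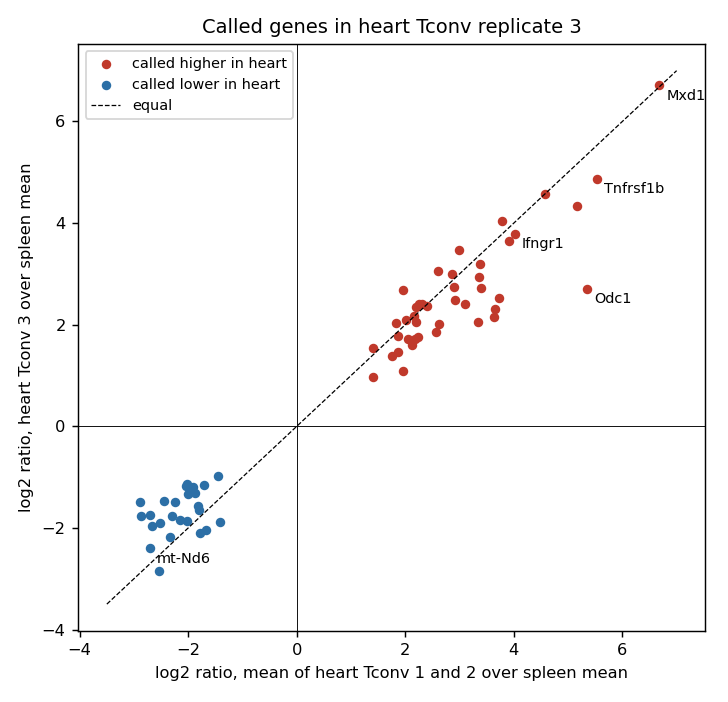
Log2 ratio to the spleen mean of heart Tconv 3 (vertical) against that of the mean of heart Tconv 1 and 2 (horizontal) for the 67 called genes with enough counts in both groups; the dashed line marks equality. All points lie on the same side of 0 on both axes, and 30 of 42 genes called higher and 21 of 25 called lower are nearer to spleen in heart Tconv 3.

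All 71 called genes lay outside the spleen range on the same side in heart Tconv 3 by itself, which held for 46.4% of all genes tested. The contrast used heart Tconv 3, so this describes the calls and is no second test. For the genes called higher, the median log2 ratio to the spleen mean was 2.61 in the mean of heart Tconv 1 and 2 and 2.39 in heart Tconv 3. For those called lower it was −2.05 and −1.74. Of the 71, 11 were called in the fit with the library-set term (Cdkn1a, Traf1, Ifngr1, Emb, Samsn1, P2ry10, Rgs1, Fam107b, Hspa5, Ctla4 and mt-Nd6).

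Markers of some other cells differed between heart and spleen, and several differed widely between libraries of 1 group. Dcn, the matrix proteoglycan decorin of fibroblasts, was itself called, at 1.13, 58.3 and 16.4 CPM in heart and 0, 0.0786 and 0 CPM in spleen (ratio 862.8, interval 238.5 to 7130, adjusted p = 0.044, and 0.16 with the library-set term). No library from outside the heart exceeded 7.72 CPM in the sum of the fibroblast genes tested. Such genes could thus pass the filter almost only through heart libraries, of Tconvs or Tregs. The count of those higher in heart is therefore not comparable with the share of all genes tested. Of 16 fibroblast genes 11 were tested, and all 11 were higher in heart. Together they summed to 1.4, 278 and 260 CPM in heart Tconv 1, 2 and 3 and to 0.346, 3.38 and 0 CPM in spleen, with Tcf21 and Ddr2 at 0 in all 6. Sparc, a matrix protein, had 0.135, 94.1 and 88.2 CPM against 0.216, 0 and 0 CPM, and Col3a1, a fibrillar collagen, 0, 20.5 and 43.3 CPM against 0 CPM in each spleen library.

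Heart libraries held few erythroid and platelet reads, so a count of these genes too is not comparable with the share of all genes tested. The genes lay on the other side, with 6 of 7 tested lower in heart. They summed to 1.04, 3.08 and 32.5 CPM in heart and 418, 852 and 1280 CPM in spleen, with Ppbp and Itga2b at 0; edgeR called 0, with 4 at an unadjusted p under 0.05, DESeq2 called 4 and limma-voom 0. Macrophage and monocyte genes summed to 378 to 525 CPM in heart and 572 to 777 CPM in spleen, but most of that sum is Ctss, a lysosomal protease gene, at 295.6 to 451.8 CPM against 551.7 to 776.4 CPM. Of the 8 tested, 6 were higher in heart and 2 lower, with a median log2 fold change of 4.31 (3.33 with genes absent from a group at their bound); edgeR called 0, with 3 at an unadjusted p under 0.05, DESeq2 called 3 and limma-voom 0. The lysozyme gene Lyz2 had 63.2, 9.03 and 0.0874 CPM in heart Tconv 1, 2 and 3, and the complement gene C1qb 31.8, 0 and 0.0437 CPM, against 0 CPM of both in each spleen library. Heart Tconv 1 thus had the highest level of both, and heart Tconv 3 nearly none.

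B cell genes summed to 208 to 311 CPM in heart and 430 to 534 CPM in spleen, most of it Ighm, the constant region of IgM, at 207.7 to 304.3 CPM against 423.6 to 519.6 CPM. Of the 10 tested, 6 were higher in heart and 2 lower, and Fcmr, Fcer2a and Cr2 were at 0 in all 6 libraries; edgeR called 0, with 5 at an unadjusted p under 0.05, DESeq2 called 2 and limma-voom 0. Dendritic cell and MHC class II genes summed to 1000, 84.1 and 634 CPM in heart and 383 to 412 CPM in spleen, with 8 of 10 higher; edgeR called 0, with 2 at an unadjusted p under 0.05, DESeq2 called 2 and limma-voom 0. Cardiomyocyte genes did not exceed 25.5 CPM in sum in any of the 6 libraries, with Tnnt2, Nppa and Nppb at 0, and neutrophil genes did not exceed 21.3 CPM. Endothelial genes summed to 17 to 68.8 CPM, with Kdr, Tie1 and Cldn5 at 0. Genes of NK and innate lymphoid cells summed to 30.8 to 101 CPM in heart and 2.99 to 193 CPM in spleen, with 5 of 7 higher in heart. The part of these transcripts in the other results was not tested.

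Tregs of the same organs, which share no library with the Tconvs, were measured in the same way. Of the 46 genes called higher in heart Tconvs, 46 had a log2 fold change above 0 in heart against spleen Tregs, and of the 25 called lower, 25 had one below 0. Over all genes tested, 46.8% had a log2 fold change above 0 in Tregs and 62.6% had the same sign in both cell types. In Tregs 8 of the 46 and 1 of the 25 were called, against 0.0934% of all genes called higher and 0.0533% called lower there. Those called were Dcn, Ifngr1, Ifrd1, Traf1, Pde4b, Arf4, Cytip, Emb and mt-Nd6. Emb, for example, was at 1326 ± 338 CPM in heart Tregs and 262.7 ± 26.7 CPM in spleen Tregs (SD, n = 3; log2 fold change 2.34, SE 0.27, adjusted p = 0.00057). The median log2 fold change in Tregs was 1.92 over the 46 genes and −0.97 over the 25. Fibroblast genes summed to 171 to 962 CPM in heart Tregs and at most 2.55 CPM in spleen Tregs, and 1 of the 3 heart Treg libraries is among the 5 of very low mitochondrial rRNA.

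**Figure D5:**
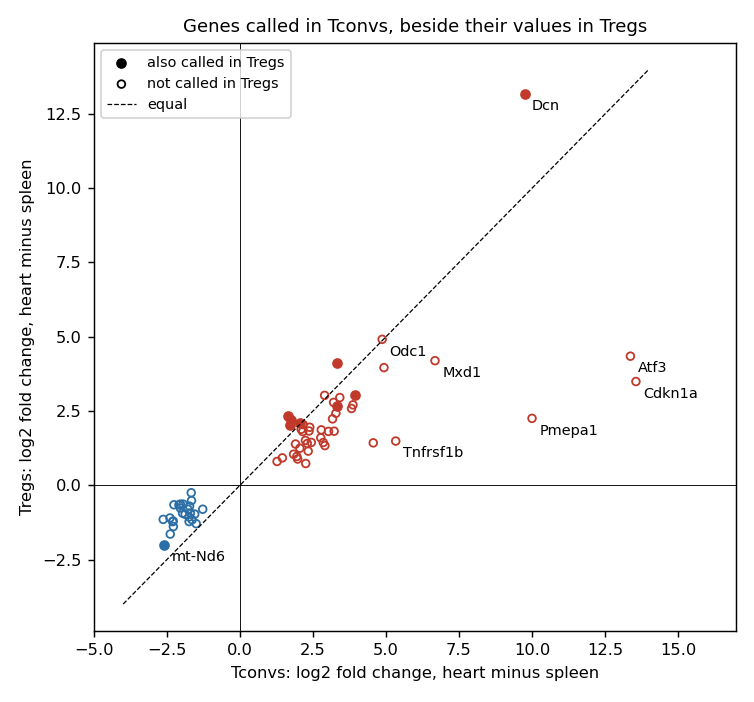
Log2 fold change, heart minus spleen, of the 71 genes called in Tconvs (horizontal) beside that in Tregs (vertical); filled points were also called in Tregs, the dashed line marks equality, and Tconv values of genes with few or no spleen counts are count ratios or bounds. Every gene lies on the same side of 0 in both, and Cdkn1a, at 3.49 in Tregs, lies far below the line.

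The difference between organs departed from that in Tregs for 2 genes of 14996 (0.0133%), Cdkn1a and H2-Aa. In Tregs Cdkn1a was at 195.3 ± 88.1 CPM in heart and 17.4 ± 11.8 CPM in spleen (log2 fold change 3.49, adjusted p = 0.073). Heart Tregs and heart Tconvs thus had similar mean levels, and spleen Tregs held Cdkn1a while spleen Tconvs held next to none. The values of H2-Aa are given with the results for a closer look.

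Beside the spleen stand the Tconvs of a non-draining lymph node (NDLN), compared with the same heart libraries, so that the 2 contrasts are not independent. Against NDLN 231 genes were called higher in heart (1.54%) and 201 lower (1.34%). Of the genes called here, 42 of the 46 and 24 of the 25 were also called there. The exceptions were Pmepa1, Necap2, Stat3, Ctla4 and Dmac1. Ctla4 was at 141.7 ± 92.6 CPM in NDLN Tconvs, near its 166 ± 40.7 CPM in heart Tconvs, against 24.4 ± 15.7 CPM in spleen Tconvs (SD, n = 3). Cdkn1a was at 0.0483 ± 0.0441 CPM in NDLN Tconvs, as low as in spleen.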

How the data were processed

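RNA was sequenced in 21 T cell libraries, 3 in each of 7 groups, and library titles gave the group and replicate number. The authors deposited raw read counts per gene, in whole numbers. The submitters' processing notes name CASAVA 1.8.2, HISAT2, HTSeq 0.6.0 and the build mm10; the annotation, strand setting and treatment of multiple matches were not given in the sources used here. Of 49510 Ensembl IDs in the table, 49326 were found in GENCODE M21, which also gave positions on GRCm38. Symbols that had become dates were restored for 26 genes, and 172 genes share a symbol. All columns were matched to libraries, with 0 left unused. In every group, each pair of replicates differed by more than sampling noise.

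Genes were kept by filterByExpr (minimum count 10, minimum total 15), which left 14996. TMM-scaled counts of all 21 libraries were fitted in edgeR 4.0.16 (R 4.3.3) with 1 coefficient for each group and a common estimate of spread (common dispersion 2.19, a biological coefficient of variation of 1.48). Contrasts were tested with the robust quasi-likelihood F-test and Benjamini-Hochberg adjustment. The SE was derived from the fold change and the F statistic. The script was tested on simulated counts with known changes.

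Genes to be named were chosen by rule. First came the 12 largest rises and 12 largest falls among called genes that reached 20 CPM in either group without overlap of the libraries. The 10 uncalled genes with the smallest p on each side were next. From each list came up to 4 members by smallest p and the 2 at the highest level. A set of genes was always included. Not every gene chosen from the lists or from that set is named in the text. The other called genes were added after their values were seen, so that the text names all of the 71 but 1, which is not reported here. The comparison, the 31 gene lists and the rule were chosen with earlier results of these data known. Lists are described by counts and medians, without a test of the list. Alternatives were DESeq2 1.42.0, limma-voom (limma 3.58.1), other scaling, filters and sample sets, a library-set term, a replicate block, and leaving out each library.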

Additional observations from a re-analysis of the deposited data

Results flagged for a closer look

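The difference between heart and spleen departed from that in Tregs for Cdkn1a and H2-Aa, by the interaction contrast of edgeR with Benjamini-Hochberg adjustment. For Cdkn1a the log2 difference in Tconvs exceeded that in Tregs by 9.64 (adjusted p = 0.0022). Spleen Tconvs held 1 library with any count, so the fitted size depends on the fit's prior count. Leaving out each Tconv library in turn, a check chosen after seeing the data, gave 9.18 to 11.49, with adjusted p between 0.003 and 0.02. With heart Tconv 3 as the only heart Tconv library the value was 9.38 and the adjusted p 0.13.

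For H2-Aa, a chain of MHC class II that antigen-presenting cells carry, the difference between the contrasts was 13.34 (adjusted p = 0.015). Heart Tconvs had 177.3, 1.48 and 90.7 CPM and spleen Tconvs 4.68, 68.4 and 77.4 CPM, and these overlap. Heart Tregs had 0.0396 ± 0.0685 CPM and spleen Tregs 264.1 ± 95.5 CPM (SD, n = 3). B cell genes summed to 806 to 1040 CPM in heart Tregs and 1460 to 3330 CPM in spleen Tregs, and their part in the result was not tested. The adjusted p was 0.051 without spleen Tconv 2, 0.085 without spleen Tconv 3 and 0.087 with heart Tconv 3 as the only heart Tconv library.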

How the results depend on the processing

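Every called gene kept its sign in each alternative in which it was tested, but few calls passed in all. DESeq2 called 1470 genes (894 higher, 576 lower), limma-voom 222 (172 and 50) and edgeR without a filter on low counts 354 (187 and 167); of the 71 genes called, 71, 41 and 56 were called there too. With only the 6 libraries of the comparison 20 were called (18 and 2), with only the 9 Tconv libraries 21 (11 and 10), with the library-set term 12 (10 and 2) and with only the 16 libraries outside the low mitochondrial rRNA set, where heart Tconv 3 stands alone and its spread is taken from the other groups, 1 (1 and 0). RLE size factors gave 69 calls and leaving out mitochondrial and ribosomal protein genes 66. Without 1 library, calls ranged from 3 to 187 (2 to 61 higher, 0 to 126 lower). The lowest total came without spleen Tconv 3 and the highest without heart Tconv 3, and 3 and 67 of the 71 were called there. Genes for which the difference between organs departed from that in Tregs numbered 850 by DESeq2, 52 by limma-voom, 2 with the library-set term and 0 with the 16 libraries. For these changes of count the cause was not tested. Reversals were limited, among the genes whose fold change the text gives, to Il7r (0.01 by limma-voom, 0.06 with the 16 libraries, and without 1 library from −0.26 to 0.25, above 0 without heart Tconv 2 or spleen Tconv 3), Tcf7 (−0.30 with the library-set term) and S1pr1 (without 1 library from −0.15, without heart Tconv 1, to 0.76).

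Deviations of same-numbered heart and spleen Tconvs from their group means correlated at −0.06, −0.0188 and −0.0126, and those of differently numbered ones at −0.0155 to 0.0404. Values this near 0 show no pairing by replicate number, but with 3 widely spread libraries in a group they cannot exclude it. With the replicate block 287 genes were called (91 higher, 196 lower; the share of higher calls was 31.7% against 64.8%), the 71 among them, and 1 gene for the departure from Tregs.

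Groups of 3 libraries, with a biological coefficient of variation of 1.48 as a summary over all genes, limit what can be called. A gene that missed the threshold is not shown to be equal in both organs.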

Other observations

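Just short of the threshold, at adjusted p of 0.052 to 0.053 by edgeR's quasi-likelihood test, stood genes that the rule names next and that did not pass. Rgs2, a relative of Rgs1, had 2694, 2241 and 1929 CPM in heart Tconv 1, 2 and 3 and 366.8, 200.9 and 238.2 CPM in spleen Tconv 1, 2 and 3 (log2 fold change 3.09, SE 0.73). Slc3a2, the heavy chain that carries the amino acid transporter LAT1 to the surface, had 502.3, 645.1 and 418.1 CPM against 61.6, 55 and 81.7 CPM (log2 fold change 2.98). The protease inhibitor gene Ctla2a had 767, 765.9 and 291.5 CPM against 22.2, 51.2 and 73.2 CPM. Mapkapk3, a kinase downstream of p38, had 154.7, 166.3 and 159.4 CPM against 24.1, 25.8 and 26.9 CPM, with little spread in either group. The remaining 6 on this side were Irf1, Selplg, Mgp, Fam110a, Sertad1 and H2-Q7, the last a class I MHC gene with near-identical copies, so that its count is uncertain. On the lower side Cd52, a short glycoprotein of the lymphocyte surface, had 2050, 1426 and 3142 CPM in heart against 7016, 5669 and 5505 CPM in spleen (log2 fold change −1.46, SE 0.33). The other 9 were Cdc26, Nop10, Cyb5a, Exosc8, Mrpl36, Taf6l, Ndufs4, Polr2g and Chchd1, of which Mrpl36, Ndufs4 and Chchd1 serve mitochondria and Exosc8, Nop10 and Polr2g make or process RNA.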
